A study of Mus musculus with 288 samples.

Results

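Mediator is the large complex that carries signals from DNA-bound transcription factors to RNA polymerase II. Its head and middle modules contact the polymerase, its tail meets many activators, and Med14 runs through all of them as a backbone. A separate kinase module docks reversibly on this core and hinders its contact with the polymerase; it holds the kinase Cdk8 or its paralog Cdk19, cyclin C (Ccnc), Med12 or Med12l, and Med13 or Med13l. Cdk8 and Cdk19 are known to phosphorylate transcription factors.

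The members were the 33 listed Mediator symbols, all present in the table of 23481 genes: 7 genes of the kinase module and 26 core subunits. Levels were measured in bone-marrow-derived macrophages of C57BL/6 mice aged 12 weeks, grown for 7 days with M-CSF in DMEM with 10% serum. Cells received DMSO, dCA at 100 nM or BRD-6989 at 1 uM for 24 h, and the labels call both compounds CDK8 inhibitors. They were then left unstimulated or given CpG, FLA, LPS, MDP, MDP with LPS (MDP_LPS), Pam3cys, Poly(I:C), R848, SeV, TDB or Zymosan and lysed after 15, 30, 45, 60, 90, 120, 150 or 180 min, and each combination had 1 well. The labels name no separate animals or cultures, so p-values measure only the spread between these wells, which may be technical. Each pretreatment filled 1 plate of 96 wells, each time a plate row and each stimulus a plate column, so inhibitor and plate, time and row, and stimulus and column cannot be told apart.

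Sequenced tags were counted by unique molecular identifier (UMI), a random barcode that marks each captured transcript once. The 288 wells held 37542 to 127223 UMI, of which the precursor ribosomal RNA Rn45s took a mean of 52.7% on the DMSO plate, 49.0% on the dCA plate and 43.6% on the BRD-6989 plate. Rn45s was left out, and adding up the wells of all 8 times gave 36 libraries, 1 for each condition of each plate, with 227325 to 449471 UMI. Levels are CPM, the UMI count scaled to a library total of 1000000 UMI, and SDs over 12 libraries include differences between stimuli. Tags come from the 3′ end, 1 per transcript, so levels are not scaled by gene length. All 9 macrophage markers in the table were detected, from 75 UMI over all wells for Mertk to 14490 for Lyz2. Of the lists for other cell types, only the erythroid one, with 5 markers, was wholly at 0. In the T cell list Cd3d had 80 UMI, more than Mertk. The highest neutrophil marker was Mmp8 at 37 UMI, and the highest B cell marker Cd79b at 21. Among fibroblast markers Col1a2 was highest at 15 UMI, and the mast cell and basophil list had 1 UMI, from Ms4a2. Dendritic, osteoclast and endothelial markers are given below.

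Mediator transcripts were sparse: the 33 genes together gave 14663 UMI, or 1278 CPM over all wells. Among the 33 genes, Med13l, a kinase module paralog of Med13, had the highest mean level in DMSO. Its lowest, median and highest DMSO libraries held 132, 217 and 326 CPM (214 ± 52.3, SD, n = 12), and it ranked 857th of the 14707 genes with any UMI. Med12, the subunit through which cyclin C and Cdk8 are activated, followed at 121 ± 52.8 and Med17, a head subunit that holds the core together, at 118 ± 40.7. Med1, which binds nuclear receptors, averaged 101 ± 30.2 and the tail subunit Med15 91.4 ± 55.6. Of the 32 pairs of neighbours in this order, the step from Med13l to Med12 was the one larger than the SD of its paired difference (93.5 against 85.2 CPM, higher in 10 of 12 conditions).

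The catalytic pair and its cyclin stood far lower. Cdk19 averaged 23.6 ± 13.7, Cdk8 18.4 ± 15.8 and Ccnc 16.8 ± 14.4 CPM in DMSO (SD, n = 12). Med14, the backbone subunit, averaged 13.5, with DMSO libraries from 0 to 41.2. At the low end lay Med26, which couples Mediator to elongation factors, at 4.40 ± 7.68, and Med31, a small middle subunit, at 5.66 ± 9.80. Med12l was nearly absent: it had 4 UMI in DMSO, 2 in BRD-6989 and 0 in dCA, where a count of 0 allows up to 0.833 CPM. Because Med12l spans several other counted genes and the strand used in counting is not given, even these 6 UMI are uncertain.

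**Figure D1:**
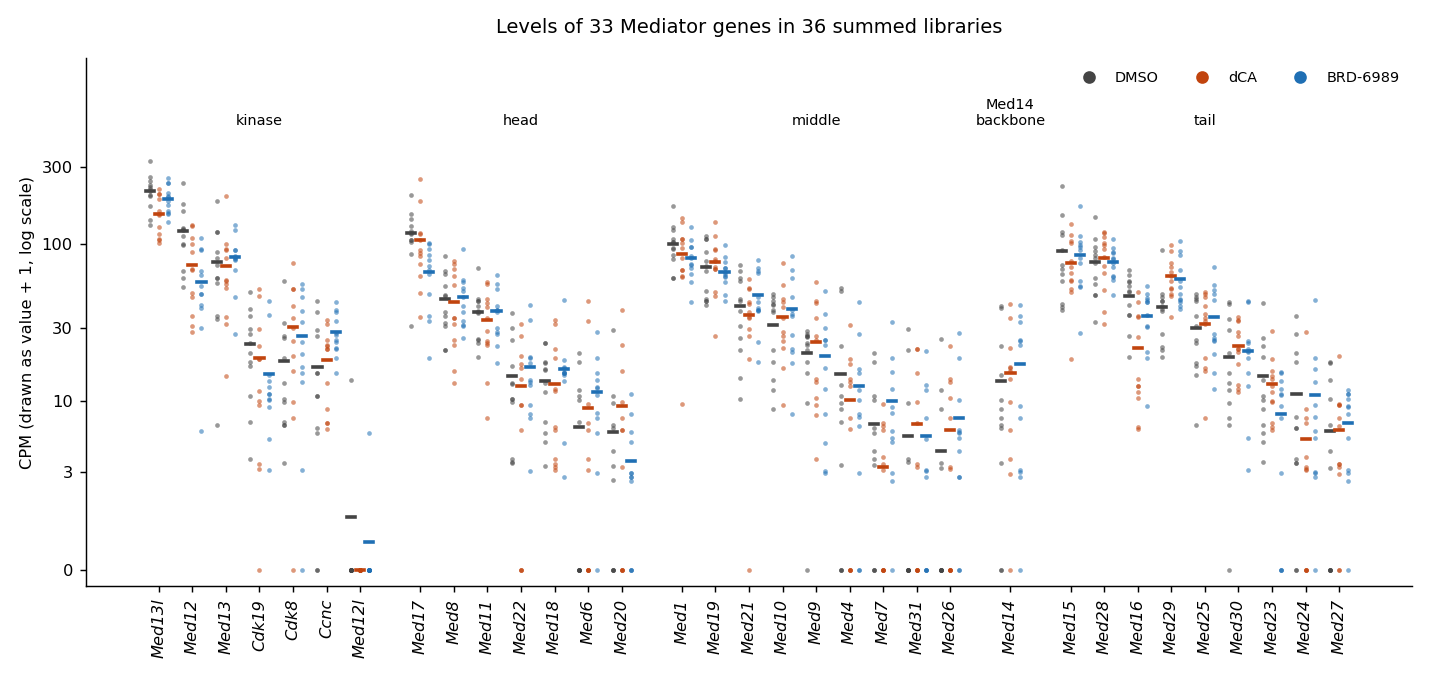
Levels of the 33 Mediator genes in CPM (vertical log axis, drawn as value + 1), grouped by module. Points are the 12 libraries of each pretreatment and bars their means; Med13l lies highest, with a DMSO mean of 214, and Med12l lies at 0 in most libraries.

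The paralogs divided unevenly. Med13l exceeded Med13 in all 12 conditions of every pretreatment and gave 72.8%, 67.8% and 69.8% of their joint UMI with DMSO, dCA and BRD-6989. Med12 gave at least 99.1% of the Med12 and Med12l total in each pretreatment. Cdk8 and Cdk19 were nearer to each other. Cdk8 supplied 45.2% of the pair's UMI in DMSO (70 against 85 UMI), 62.4% in dCA (111 against 67) and 63.7% in BRD-6989 (114 against 65). The Cdk8 share of single libraries spanned 16.7% to 83.3% with DMSO, 0% to 100% with dCA and 0% to 85.7% with BRD-6989, so the groups overlapped.

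These transcripts were unevenly spread over the wells. Cdk8 had no UMI in 190 of 288 wells, where Poisson counting at each well's depth gives 106. In the unstimulated dCA library 22 of its 23 UMI came from the wells of 30 and 150 min, which held 9 and 13. Med12 had no UMI in 111 wells against 13.2 under Poisson counting, and 42 UMI in a single DMSO well, that of TDB at 60 min, which alone gave 62.7% of its library's Med12. For the 15 members with a mean of 1 to 4 UMI per well the variance was a median of 3.04 times the mean, beside 3.23 for the 3926 genes of that depth. Counting intervals therefore understate the spread, and the tests below use the spread between libraries.

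**Figure D2:**
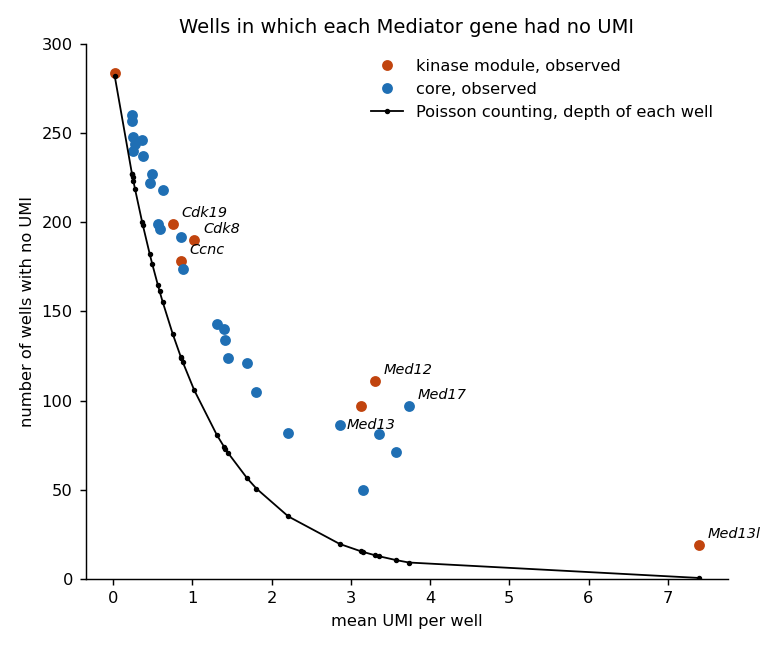
Number of the 288 wells without any UMI (vertical axis) against the mean UMI per well (horizontal axis) for each kinase module and core gene, with the count given by Poisson sampling at the depth of each well (black). Cdk8 lies at 190 wells and Med12 at 111, above the black line.

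The comparison of each inhibitor with DMSO asks whether transcripts of the complex that holds the inhibited kinase differ after 24 h of treatment. Against DMSO, the tail subunit Med16 and the kinase module subunit Med13l fell with dCA and the tail subunit Med29 rose, while Med12 and the head subunit Med17 fell with BRD-6989. Med16 fell to 0.468 and Med13l to 0.719 of their DMSO means, and Med29 rose to 1.57 of it. Under BRD-6989 Med12 fell to 0.482 and Med17 to 0.568. In a bulk measurement fewer cells of a type and less RNA per cell cannot be told apart.

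The share of members called for each inhibitor was close to or below that over all genes. Of 26 members that passed a filter of a mean of 3 UMI per library, 3 were called for dCA (11.5%), beside 11.9% of the 8631 genes tested (6.58% higher, 5.32% lower), and 2 for BRD-6989 (7.69%), beside 13.5% (6.78% higher, 6.71% lower). A call is an adjusted p under 0.05 in edgeR's quasi-likelihood test, with stimulus as a block and Benjamini-Hochberg adjustment over all genes. Among the 6 kinase module genes tested, 1 was called for each inhibitor, Med13l for dCA and Med12 for BRD-6989, both lower. The members' median log2 change was -0.07 for dCA and 0.02 for BRD-6989, beside medians of -0.02 and 0.01 over all genes. Med6, Med7, Med12l, Med20, Med26, Med27 and Med31 had too few UMI to be tested.

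Med12, a scaffold of the kinase module encoded at chrX:101274091-101298934, had its lowest, median and highest libraries at 54.4, 118 and 240 CPM in DMSO. The same values were 28.1, 69.7 and 132 in dCA and 6.18, 52.1 and 109 in BRD-6989. The lowest DMSO libraries overlapped with both inhibitor groups, and Med12 was lower than DMSO in 10 of 12 conditions under BRD-6989 and in 9 of 12 under dCA. The log2 change was -1.02 ± 0.26 (SE) for BRD-6989 (edgeR adjusted p = 0.0030) and -0.59 ± 0.26 for dCA, which was not called (adjusted p = 0.141). The BRD-6989 call kept an adjusted p between 0.0015 and 0.0115 when each condition in turn was left out. It was lost when the Rn45s share of each library entered the fit, where the log2 change was -0.01 ± 0.63 (adjusted p = 0.999), and in wells of 45 min and earlier (-0.62, adjusted p = 0.576). The Rn45s share itself was 52.7% ± 6.89 in DMSO wells and 43.6% ± 6.75 in BRD-6989 wells (SD, n = 96), and its part in the result cannot be told apart from that of the inhibitor.

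Med17 (chr9:15260351-15279906) held 30.6, 117 and 202 CPM in its lowest, median and highest DMSO libraries, 35.1, 90.2 and 255 in dCA and 19.3, 71.1 and 101 in BRD-6989. It was lower than DMSO in 10 of 12 conditions under BRD-6989, and every BRD-6989 library lay below the DMSO median. Its log2 change was -0.76 ± 0.22 for BRD-6989 (edgeR adjusted p = 0.0127) and -0.16 ± 0.22 for dCA (adjusted p = 0.763). The BRD-6989 call was lost without the MDP_LPS libraries (adjusted p = 0.0521), without the Pam3cys libraries (0.0588), with reads in place of UMI (0.157), with the Rn45s share in the fit (log2 -0.60 ± 0.52, adjusted p = 0.765) and in the wells of 45 min and earlier, where the log2 change was -0.05 ± 0.46 (0.979).

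Med16 (chr10:79894706-79908938), a tail subunit contacted by activators, held 19.5, 50.6 and 68.9 CPM in its lowest, median and highest DMSO libraries, 6.36, 13.3 and 50.04 in dCA and 9.27, 39.9 and 54.9 in BRD-6989. It was lower than DMSO in 11 of 12 conditions under dCA and in 7 of 12 under BRD-6989. The log2 change was -1.13 ± 0.32 for dCA (edgeR adjusted p = 0.0111) and -0.39 ± 0.30 for BRD-6989 (adjusted p = 0.491). The dCA call held without each condition in turn (adjusted p at most 0.0377) but not with reads (0.0890), nor in the wells of 60 min and later (0.0921) or of 45 min and earlier (0.425) alone, where the log2 changes were -1.22 and -0.95.

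Med29 (chr7:28385247-28392690), a small tail subunit, moved the other way. Its lowest, median and highest libraries held 19.5, 40.4 and 92.4 CPM in DMSO, 35.0, 61.5 and 98.8 in dCA and 39.7, 51.5 and 105 in BRD-6989. It was higher than DMSO in 11 of 12 conditions under dCA and in 10 of 12 under BRD-6989, with 1 CpG library as the highest of the DMSO group. The log2 change was 0.75 ± 0.23 for dCA (edgeR adjusted p = 0.0248) and 0.64 ± 0.23 for BRD-6989, just outside the threshold (adjusted p = 0.0553). With edgeR the BRD-6989 change was called without the CpG libraries (0.83, adjusted p = 0.00983) or the TDB libraries (0.72, adjusted p = 0.0403). It was also called with reads (0.0394), with a minimum count of 10 as the filter (0.0478), with Rn45s kept (0.04996) and with DESeq2 (0.0380). The dCA call was lost without the MDP_LPS, Pam3cys or R848 libraries (adjusted p = 0.0641, 0.0555 and 0.0680), and with no filter, with reads, with the Rn45s share in the fit, in early or late wells alone and in single wells (0.0647 to 0.468). Its log2 change lay between 0.64 and 0.90 over all 24 alternatives.

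Med13l (chr5:118560330-118765438) held 102, 153 and 221 CPM in its lowest, median and highest dCA libraries and 138, 191 and 256 in BRD-6989, beside the DMSO values above. It was lower than DMSO in 11 of 12 conditions under dCA. The log2 change was -0.40 ± 0.13 for dCA (edgeR adjusted p = 0.0359) and -0.11 ± 0.13 for BRD-6989 (adjusted p = 0.685). The dCA call was the least steady of the 5: it was lost without the NoStim, CpG, MDP, MDP_LPS, TDB or Zymosan libraries, with adjusted p reaching 0.164 without CpG, and also with no filter, with reads, with the Rn45s share in the fit, without the stimulus block, in early or late wells alone and in single wells (adjusted p = 0.0602 to 0.528). Its log2 change lay between -0.46 and -0.30 over all 24 alternatives.

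**Figure D3:**
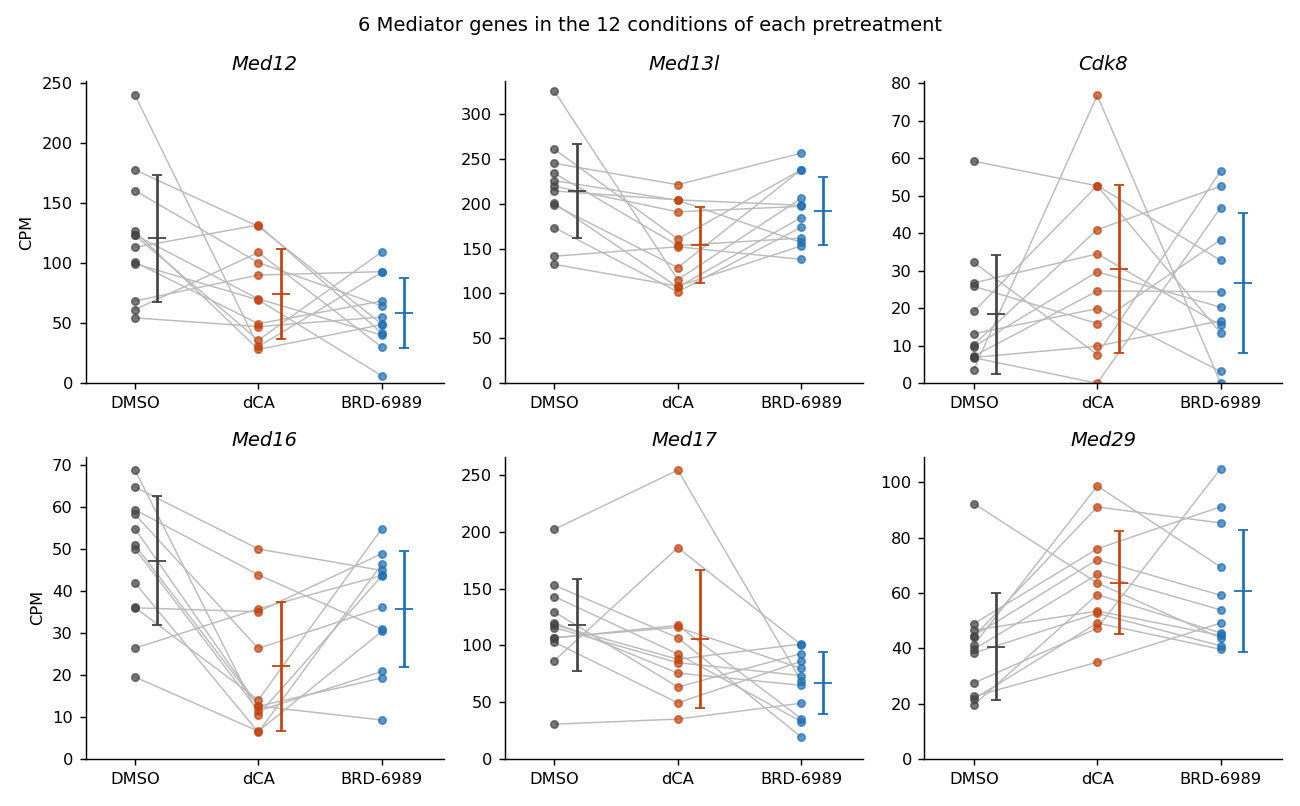
CPM of 6 Mediator genes in the 12 conditions of each pretreatment; grey lines join the same condition, and horizontal marks with bars give the mean ± SD. Med16 was lower in 11 of 12 conditions under dCA, Med29 higher in 11 of 12, and Med12 lower in 10 of 12 under BRD-6989; the Cdk8 values spread from 0 to 76.7.

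Neither kinase transcript was called. Cdk8, the kinase named as the target, held 3.60, 11.7 and 59.2 CPM in its lowest, median and highest DMSO libraries, 0, 27.2 and 76.7 in dCA and 0, 22.3 and 56.6 in BRD-6989. It was above DMSO in 8 of 12 conditions under each inhibitor, with log2 changes of 0.84 ± 0.47 for dCA (edgeR adjusted p = 0.303) and 0.65 ± 0.47 for BRD-6989 (0.447). The 95% intervals ran from -0.10 to 1.79 and from -0.29 to 1.59. Cdk19 held 3.83, 22.2 and 50.5 in DMSO, 0, 15.3 and 52.8 in dCA and 3.12, 11.1 and 44.1 in BRD-6989. It was below DMSO in 8 of 12 conditions under each inhibitor (log2 -0.38 ± 0.44 and -0.56 ± 0.45, adjusted p = 0.708 and 0.507).

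Ccnc held 0, 13.1 and 44.2 CPM in its lowest, median and highest DMSO libraries, 6.36, 22.0 and 33.4 in dCA and 15.4, 25.9 and 43.6 in BRD-6989. Its log2 change was 0.30 ± 0.44 for dCA (edgeR adjusted p = 0.774) and 0.91 ± 0.42 for BRD-6989 (0.167), with 9 of 12 conditions higher under the latter. Med13, which links the kinase module to the core, held 6.80, 68.3 and 184 in DMSO, 14.6, 59.6 and 198 in dCA and 27.5, 82.6 and 132 in BRD-6989, with log2 changes of -0.08 ± 0.31 and 0.09 ± 0.30 (adjusted p = 0.933 and 0.913). Ccnc overlaps Tstd3 in the annotation, and without a stated strand their tags cannot be told apart.

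**Figure D4:**
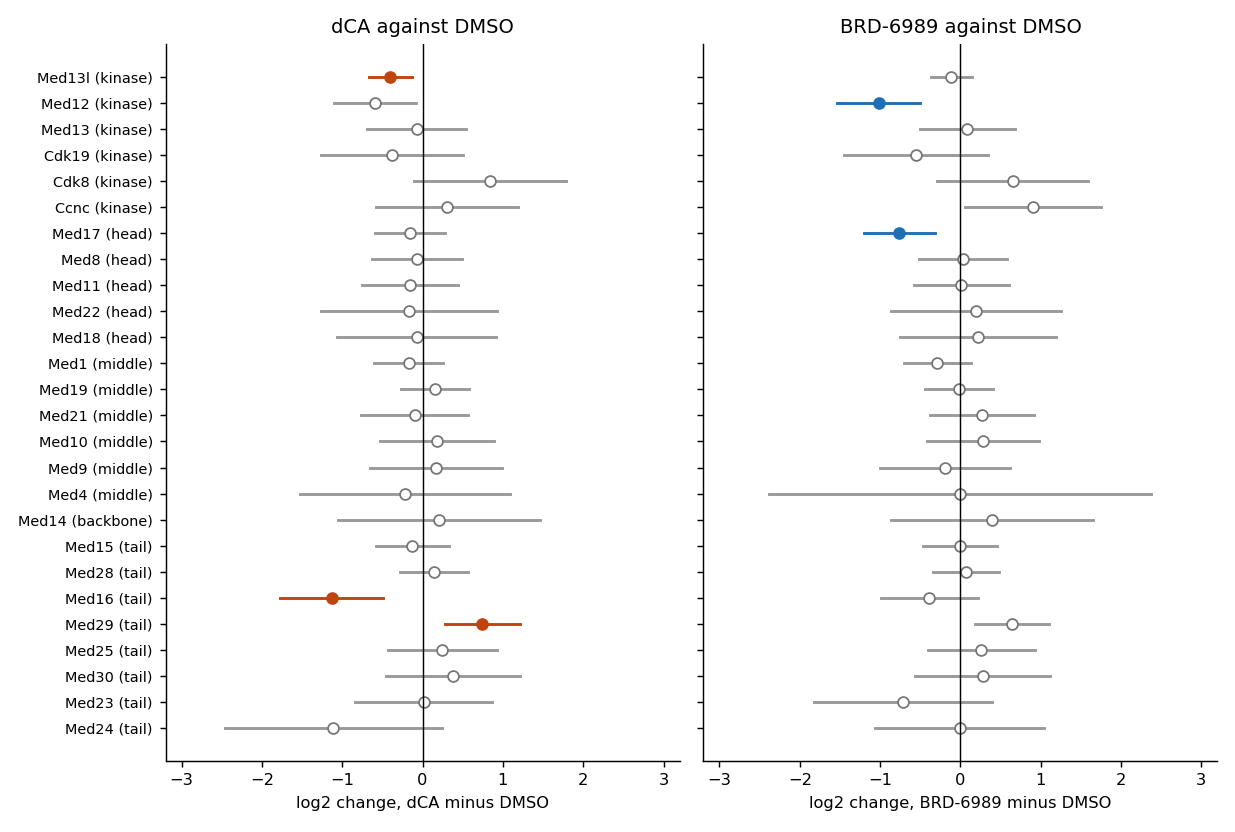
Fitted log2 change of the 26 tested members (horizontal axis) for dCA and for BRD-6989 against DMSO, with 95% intervals; filled points passed an adjusted p of 0.05. The filled points are Med13l, Med16 and Med29 for dCA and Med12 and Med17 for BRD-6989.

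No other core subunit was called in the main fit. In the middle module Med1 had a log2 difference of -0.17 ± 0.21 with dCA and -0.29 ± 0.21 with BRD-6989 (edgeR adjusted p = 0.730 and 0.457), and Med19 one of 0.16 ± 0.21 and -0.02 ± 0.21 (0.756 and 0.980). In the tail the differences were 0.14 ± 0.21 and 0.07 ± 0.21 for Med28, and for Med15 they were -0.13 ± 0.23 and -0.00 ± 0.23. Over these 4 subunits the 95% intervals ran no lower than -0.71 and no higher than 0.58. Subunits of low level were measured less well: for Med4, at 15.04 CPM in DMSO, the dCA interval ran from -1.53 to 1.09. Med24, a tail subunit named after its values were seen, had a log2 change of -1.11 ± 0.67 with dCA (edgeR adjusted p = 0.359). It was called for dCA in single wells (-0.94, edgeR adjusted p = 0.0484), and its BRD-6989 change in the main fit was -0.01 (0.996).

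The doses of dCA and BRD-6989 differ, and each had its own plate, so the compounds were set side by side. In the direct contrast of dCA with BRD-6989, edgeR called 142 genes (1.65% of 8631) and 0 of the 26 members, with 3 members at an unadjusted p under 0.05 beside 11.9% of all genes; DESeq2 called 251 genes and 0 members. Med17 was higher under dCA by 0.60 ± 0.22 (95% interval 0.15 to 1.05, adjusted p = 0.202), Med16 lower by a log2 of -0.74 ± 0.32 (-1.38 to -0.10, 0.316) and Med13l lower by a log2 of -0.29 ± 0.13 (-0.55 to -0.02, 0.351); these are the 3. Med12 had a difference of 0.43 ± 0.27 (-0.11 to 0.96, 0.570) and Med29 one of 0.10 ± 0.22 (-0.34 to 0.55, 0.921). The members called against DMSO for 1 compound are thus not shown to differ between the compounds.

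Summed over its 7 genes, the kinase module gave 472 ± 90.5 CPM with DMSO, 369 ± 91.6 with dCA and 403 ± 71.2 with BRD-6989 (SD, n = 12). This sum lay below DMSO in 10 and 9 of 12 conditions. In the same order, Med13l averaged 214, 154 and 192 CPM and Med12 121, 74.3 and 58.2. Med13 averaged 77.2, 73.1 and 82.7 and Cdk19 23.6, 19.1 and 15.1. Cdk8, at 18.4, 30.4 and 26.7, and Ccnc, at 16.8, 18.6 and 28.0, were higher on both inhibitor plates. The core gave 892 ± 134, 853 ± 117 and 852 ± 107. The ratio of kinase module to core UMI had its lowest, median and highest values at 0.410, 0.484 and 0.791 in DMSO, 0.196, 0.478 and 0.587 in dCA and 0.308, 0.489 and 0.830 in BRD-6989. It was below DMSO in 8 of 12 conditions under dCA and in 9 of 12 under BRD-6989, and the groups overlapped. The means were 0.539 ± 0.124, 0.442 ± 0.124 and 0.488 ± 0.144 (SD, n = 12). Without Med13l, which gave 2128 of the module's 4744 UMI, they were 0.291, 0.258 and 0.255.

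**Figure D5:**
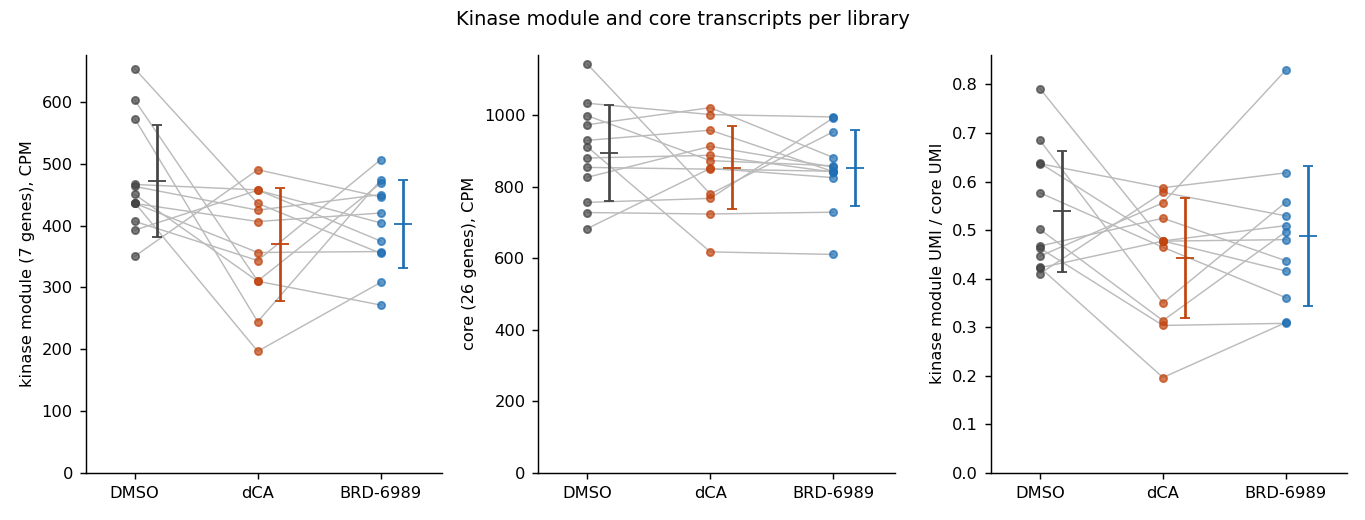
Summed kinase module CPM, summed core CPM and their ratio in the 36 libraries; grey lines join the same condition and marks with bars give the mean ± SD of 12. The kinase module means are 472, 369 and 403 and the core means 892, 853 and 852.

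Markers of some other cell types differed between the plates. Of 5 osteoclast markers, 4 had UMI and Calcr was at 0, and their summed level was 0 to 13.2 CPM in DMSO (median 3.51), 0 to 47.7 in dCA (17.7) and 0 to 27.9 in BRD-6989 (11.6). The 3 endothelial markers, mainly Kdr, summed to 0 to 43.3 (median 6.95), 3.14 to 87.8 (19.9) and 2.98 to 60.1 (29.2). The sum of the 4 dendritic cell markers went the other way, at 5.94 to 64.6 (median 21.6), 3.51 to 46.2 (12.9) and 2.57 to 41.0 (14.9). It came almost wholly from Xcr1, with 210 UMI over all wells beside 4 for Zbtb46, 1 for Ccr7 and 0 for Flt3. The macrophage markers summed to medians of 4185, 3888 and 4084. The part of these differences in the results was not tested.

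Pooled, other genes of the transcription machinery were called at shares below those of all genes, but single lists differed. Of 95 listed genes of RNA polymerase II, the general factors, TFIID, elongation, Integrator, coactivators and cohesin, 85 were tested. For dCA 1 was higher and 6 were lower (8.24% called), and for BRD-6989 1 was higher and 5 were lower (7.06%), beside the 11.9% and 13.5% of all genes. Of 15 coactivator and cohesin genes tested, 5 were lower with dCA, where 5.32% of all genes were lower, and 1 was lower with BRD-6989. Of 20 elongation genes, 1 was higher and 1 lower with dCA, and 1 was higher and 3 lower with BRD-6989. Over all genes 6.58% were higher and 5.32% lower with dCA, and 6.78% higher and 6.71% lower with BRD-6989. None of the 12 polymerase subunits was called. Ell2, an elongation factor, rose by a log2 of 0.76 ± 0.14 with dCA and 0.98 ± 0.14 with BRD-6989 (edgeR adjusted p = 3.66e-05 and 1.50e-07). Among the coactivators Crebbp and the cohesin loader Nipbl fell with dCA (log2 -0.62 ± 0.19 and -0.40 ± 0.12, adjusted p = 0.0208 and 0.0224), and the chromatin remodeller Smarca4 fell with BRD-6989 (-0.66 ± 0.09).

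Promoter letters are shown for 4 of the 5 called members because Med12 and Med17 both fell under BRD-6989 while Med16 fell and Med29 rose under dCA; the Med13l window lies within its own annotated span. The lines give the 250 bases before the annotated start from RefSeq on GRCm38.p6, 5′ to 3′ on the gene's strand, with matches on either strand in capitals. The GC box was searched as GGGCGG and the CCAAT box, which NF-Y binds, as CCAAT. The motif of TATA promoters was searched as TATAAA and that of ETS factors as CCGGAAG. The core of NRF1 was searched as GCGCATGC and the E-box as CACGTG, and no matches overlapped.
Med12: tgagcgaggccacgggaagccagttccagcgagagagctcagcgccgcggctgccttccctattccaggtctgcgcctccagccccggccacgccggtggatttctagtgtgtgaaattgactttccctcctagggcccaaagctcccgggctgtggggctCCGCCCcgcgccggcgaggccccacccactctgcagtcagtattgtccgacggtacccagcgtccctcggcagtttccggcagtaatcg
Med17: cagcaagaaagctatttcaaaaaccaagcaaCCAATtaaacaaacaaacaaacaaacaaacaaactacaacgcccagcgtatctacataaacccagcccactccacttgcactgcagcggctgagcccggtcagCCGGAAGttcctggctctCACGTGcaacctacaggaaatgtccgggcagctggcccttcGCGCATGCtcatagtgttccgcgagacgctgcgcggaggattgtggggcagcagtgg
Med16: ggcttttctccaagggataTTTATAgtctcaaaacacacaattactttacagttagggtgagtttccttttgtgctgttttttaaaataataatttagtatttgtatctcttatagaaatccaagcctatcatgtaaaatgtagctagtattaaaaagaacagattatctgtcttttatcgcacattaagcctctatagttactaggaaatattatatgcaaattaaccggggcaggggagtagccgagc
Med29: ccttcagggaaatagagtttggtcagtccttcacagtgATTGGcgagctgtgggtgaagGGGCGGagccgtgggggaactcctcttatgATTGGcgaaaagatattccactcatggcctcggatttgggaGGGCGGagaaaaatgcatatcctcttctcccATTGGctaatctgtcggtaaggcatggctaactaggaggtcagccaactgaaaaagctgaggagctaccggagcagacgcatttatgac

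The Med12 window (chrX:101273841-101274090) held 1 GC box, 89 bases before the start. The Med17 window (chr9:15279907-15280156, minus strand) held a CCAAT box, an ETS match, an E-box and an NRF1 core and shared none of the searched motifs with Med12. The Med29 window (chr7:28392691-28392940, minus strand) held 3 CCAAT boxes and 2 GC boxes, and the Med16 window (chr10:79908939-79909188, minus strand) 1 TATA match 231 bases upstream, in a stretch of 33.2% G and C. Of the 32 windows found for 28 members, 62.5% held a GC box, 37.5% a CCAAT box, 18.8% an ETS match, 12.5% an NRF1 core, 9.38% a TATA box and 6.25% an E-box. Over all 32851 windows of the same length these shares were 32.7%, 33.8%, 6.91%, 2.26%, 12.4% and 6.02%. The member windows averaged 58.0% G and C, beside 53.2% over all windows.

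The next comparison asks whether stimulation moved Mediator transcripts. In libraries summed per stimulus and pretreatment, edgeR called no member for any stimulus. Libraries of the wells of 60 min and later, 130076 to 273442 UMI each, were compared over the 3 pretreatments, with 21 members tested. Across 11 stimuli edgeR called 0 of 231 member tests, with 17 (7.36%) at an unadjusted p under 0.05 beside 8.62% of all gene tests. The share of the 7316 genes called was 3.39% for LPS, 3.28% for MDP_LPS, 2.57% for Zymosan, 2.09% for Poly(I:C), 2.04% for R848, 1.72% for Pam3cys, 1.42% for CpG and 0.861% for FLA. It was 0.109% for SeV, 0.0683% for TDB and 0.0547% for MDP. The test of any stimulus difference called 406 genes (5.55%) and 0 members, and the mean of the 11 stimuli 139 (1.90%) and 0. Of the 21 members, 3 and 2 had an unadjusted p under 0.05 in these edgeR tests, beside 13.4% and 9.60% of all genes. Known stimulus genes did change with LPS: Tnf rose by a log2 of 2.73 ± 0.29, Cxcl10 by 2.38 ± 0.20 and Il1b by 5.38 ± 0.45. None of these genes was called with MDP, SeV or TDB (edgeR adjusted p at least 0.193). Il1b or Cxcl10 was called with every other stimulus, though Cxcl10 was not called with CpG, FLA, Pam3cys or R848.

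In the kinase module, Med12 had its lowest condition mean in unstimulated wells when only wells of 60 min and later were taken. These unstimulated libraries held 57.6 (DMSO), 52.1 (dCA) and 13.8 (BRD-6989) CPM, a mean of 41.2, the lowest of the 12 conditions. The highest mean was with SeV, at 245, 182 and 49.7. Over all 8 times the order did not hold: Med12 was at 68.4, 90.1 and 92.8 CPM in the unstimulated libraries, above the 54.4, 47.1 and 55.1 with Pam3cys. The change over the 11 stimuli was a log2 of 1.19 ± 0.52 (edgeR adjusted p = 0.410), and the test of any difference gave an adjusted p of 0.232. For Med13l the values were 284, 280 and 324 with LPS and 139, 83.8 and 167 with SeV, and the test of any difference had an adjusted p of 0.101. DESeq2 called Med13l and Med15 in that test, the latter a tail subunit named here after its values were seen. For single stimuli DESeq2 also called 0 members; in single wells edgeR called Med30 with CpG and Cdk19 with LPS, and with reads Med30 with CpG, again named after their values were seen. The median SE of a member's stimulus change was 0.72 to 0.76 on the log2 scale, and the median 95% interval was 2.87 to 3.06 wide, so member changes were measured with low precision.

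Summed over the late wells, the kinase module lay between 269 ± 128 CPM with MDP and 516 ± 78.2 with MDP_LPS (SD, n = 3), with 408 ± 41.5 in unstimulated wells. The core lay between 721 ± 189 with MDP_LPS and 1050 ± 99.7 with R848, with 937 ± 67.3 in unstimulated wells. These conditions were picked as the extremes of 12, and no test was run.

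Over time in stimulated wells, Med13l and Ccnc rose. The fit on 24 libraries (11 stimuli summed per pretreatment and time, 358879 to 564548 UMI) called 612 of 9334 genes (6.56%, with 4.72% higher) and 2 of 27 members (7.41%), both in the kinase module. Med13l averaged 181 ± 57.1 CPM at 15 min, 166 ± 21.9 at 60 min and 234 ± 31.8 at 180 min (SD, n = 3), a slope of 0.26 ± 0.07 log2 per hour (edgeR adjusted p = 0.0229). Ccnc averaged 9.37 ± 7.37, 19.9 ± 9.55 and 35.2 ± 14.5 at these times, a slope of 0.59 ± 0.18 (adjusted p = 0.0332). Cdk8, Cdk19, Med12 and Med13 had slopes of -0.05 ± 0.18, -0.00 ± 0.16, 0.21 ± 0.11 and -0.04 ± 0.10 and were not called (adjusted p at least 0.353).

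Leaving out any plate ended the Ccnc call (adjusted p = 0.294 without DMSO, 0.0628 without dCA and 0.172 without BRD-6989), and leaving out DMSO or BRD-6989 ended that of Med13l (0.0938 and 0.316), which held without dCA (0.0130). Without pretreatment as a block neither was called (0.0577 for Med13l and 0.0600 for Ccnc), nor with late set against early wells (0.126 and 0.0715), and Ccnc was not called with total read counts (0.144). In unstimulated wells the slope was -0.22 ± 0.26 for Med13l and 0.29 ± 0.46 for Ccnc (adjusted p = 0.999 for both); the difference from stimulated wells was not tested.

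In unstimulated wells alone, 8 for each pretreatment, edgeR called 63 of 5834 genes for dCA (1.08%) and 69 for BRD-6989 (1.18%), and 0 of 17 members for either. Of these members 0 and 1 had an unadjusted p under 0.05, beside 7.64% and 8.40% of all genes. Here Cdk8 had 1 UMI over the 8 DMSO wells, 23 over the dCA wells and 0 over the BRD-6989 wells, with a log2 change of 2.48 ± 1.49 for dCA (adjusted p = 0.779). Whether an inhibitor acted differently in stimulated and in unstimulated wells was tested on the 180 wells of 60 min and later. It gave 0 of 5771 genes for either compound (0% called), and 0 of 16 members at an unadjusted p under 0.05 beside 5.65% and 4.61% of genes. For Med12 the difference of effects was a log2 of -0.84 ± 0.99 for dCA and 0.43 ± 1.29 for BRD-6989 (adjusted p = 1 for both), with 95% intervals of -2.80 to 1.11 and -2.11 to 2.97.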

How the data were processed

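The authors deposited UMI counts and total read counts per gene and well for 288 wells of 3′ digital gene expression, with a 10-base UMI and a 6-base well tag per the labels' protocols; BWA, edgeR and mm10 are named in the submitters' processing notes. Tool versions, the annotation and the counting strand are not stated there. The TF-seq reporter tables hold no Mediator gene and were not used. Wells were grouped by the pretreatment, stimulus and time in their labels, and UMI counts were summed over the wells of a library after Rn45s was left out. The tests kept genes averaging 3 UMI or more per library (1 in single wells) and used edgeR 4.0.16 in R 4.3.3 (quasi-likelihood, robust, TMM), with stimulus, pretreatment or time as a block and Benjamini-Hochberg adjustment over all genes and a threshold of 0.05. Errors in fits are SE. Intervals and floors from counts cover counting error only; a floor is 3 counts over the group. DESeq2 1.42.0, other filters, reads, the Rn45s share, other sets of wells and leaving out conditions were tried as alternatives. For the inhibitor, stimulus, time, unstimulated and interaction fits, 1 edgeR contrast each was run on simulated data, the interaction with a simpler design. DESeq2, the mean of the stimuli and the test of any stimulus difference were not simulated.

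Described with all libraries were the members called for an inhibitor and the kinase module; of the other lists, up to 2 genes each way per comparison were named, by smallest p; a gene this rule named in the transcription machinery is not reported here. The members and lists were chosen with earlier results of these data known. Gene positions and promoter windows came from RefSeq on GRCm38.p6, where all 33 symbols matched and 28 had a window.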

Additional observations from a re-analysis of the deposited data

Results flagged for a closer look

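In 15 of 51 groups of 8 unstimulated wells, over 17 members, 1 well lay far above the others by a gap-over-range limit that chance passes in about 1 in 20 groups of normally distributed values. These sparse counts are not of that kind, and a group with UMI in a single well always passes it, so the number of such groups is not read against chance. In the kinase module, Cdk8 had its only DMSO UMI at 90 min, which is 35.2 CPM from 1 UMI. Med12 reached 587.8 CPM (23 UMI) in the BRD-6989 well of 45 min, beside 113 in the next well. Med13 reached 346.6 (12 UMI) in the DMSO well of 120 min and Med13l 448.3 (27 UMI) in the BRD-6989 well of 60 min.

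In the core, Med15 stood out at 470.3 CPM in the DMSO well of 180 min and at 416.3 in the dCA well of 150 min, and Med16 at 242.0 in the BRD-6989 well of 150 min. Med30 stood out on every plate, at 152.9 (DMSO, 30 min), 207.7 (dCA, 120 min) and 134.4 (BRD-6989, 150 min). Med10 reached 236.5 (dCA, 15 min), Med11 144.4 (DMSO, 120 min), Med19 330.5 (dCA, 90 min), Med21 200.3 (BRD-6989, 90 min, with 0 in the other wells) and Med28 253.9 (dCA, 120 min). The cause was not tested.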

How the results depend on the processing

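The dCA comparison called 3 members; it called 1 without a filter on low counts, 1 with the Rn45s share in the fit, 0 with reads, 0 in the wells of 60 min and later and 0 in those of 45 min and earlier, and 1 to 3 when each condition was left out in turn (1 without MDP_LPS). The BRD-6989 comparison called 2; it called 0 with the Rn45s share, 0 in the wells of 45 min and earlier, and 1 to 3 when each condition was left out (1 without MDP_LPS and 1 without Pam3cys). The test of any stimulus difference called 0 members, 2 with DESeq2 (Med13l and Med15) and 1 without a filter (Med12). The single stimulus contrasts called 0, 1 with reads (Med30 with CpG) and 2 in single wells (Med30 with CpG, Cdk19 with LPS). The time trend called 2 members, 1 with reads, 1 for late against early wells (Med21), 0 in unstimulated wells, 0 with no replicate block and 0 to 1 when a pretreatment was left out. The Med13l slope turned to -0.22 in unstimulated wells. Leaving out the block changed no call count for a stimulus, in unstimulated wells or in the interaction, and left 2 members called for each inhibitor. The mean kinase module to core ratio without Med13l was 0.291, 0.258 and 0.255. The causes were not tested. All 5 inhibitor calls kept their direction under all 24 alternatives each, though the change came to -0.01 for Med12 with the Rn45s share and to -0.05 for Med17 in early wells: Med12 stayed called in 22, Med16 in 21, Med17 in 19, Med29 in 15 and Med13l in 11. Of all these member counts and ratios, 153 values stayed near the main one and 24 moved.

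Over all genes, calls for dCA went from 1027 to 585 with the Rn45s share and 340 in early wells, and for BRD-6989 from 1164 to 171 and 433. Calls between the compounds went from 142 to 251 with DESeq2, 287 in single wells, 94 with reads, 63 with the Rn45s share, 59 with no replicate block, 58 in late and 30 in early wells. Calls for any stimulus went from 406 to 635 with DESeq2, 643 in single wells, 252 with reads, 236 in DMSO wells alone, 220 with no replicate block, 222 without dCA and 223 without BRD-6989; for the mean stimulus from 139 to 65 in DMSO wells, 74 with no block, 76 without dCA and 78 without BRD-6989. Time calls went from 612 to 346 for late against early wells, 0 in unstimulated wells and 375 without BRD-6989. In unstimulated wells dCA calls went from 63 to 28 with reads, 41 without 60 min and 40 without 180 min, and BRD-6989 calls from 69 to 30 with reads and 45 without 180 min; 68.1% of the latter were higher, and 53.6% with RLE scaling. A minimum count of 10 left no member to test there. The interaction for BRD-6989 called 1 gene without a filter and 1 without the wells of 60 min. Capping wells at the 95th percentile, single wells with stimulus and time as factors, and leaving out late times in the interaction were chosen after seeing the data; the single-well inhibitor fit with stimulus by time as blocks was not run. Depth limits the low members: 7 of the 33 had too few UMI for the inhibitor fits over 12 conditions. The time fit tested 27 members, the stimulus fits 21, the unstimulated wells 17 and the interaction 16.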
